A study of Ovis aries with 3 samples.

Results

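Ferritin is the shell-shaped protein that stores iron inside cells in a form that cannot feed oxidative chemistry. It is built from heavy chains, which oxidise incoming ferrous iron, and light chains, which help the mineral core to form, and the mix of the chains differs between tissues. Translation of both messengers is held back by iron regulatory proteins bound to an iron-responsive element near the start of the transcript, so the amount of messenger and of protein need not move together. Before the placenta forms, the elongating conceptus of ruminants takes its nutrients from secretions of the uterus.

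The ferritin transcripts described here were measured in RNA from extracellular vesicles of sheep conceptuses (the embryo with its membranes) at day 14 of pregnancy. Each whole conceptus had been kept for 24 h in 10 ml of medium with 10% exosome-depleted fetal bovine serum, and vesicles were precipitated from the medium after it had passed a 0.2 µm filter. All 3 libraries belonged to this single group, with no control group, treatment or genotype to compare. Libraries were made from 5 ng of total RNA by a full-length cDNA method. Nothing in the labels says which conceptus gave which library, so the SDs may include technical spread. RNA of the conceptus cells and of unconditioned medium was not analysed here.

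Members were taken by name: rows called FTH1 or FTL, with or without a copy number, and rows without a symbol described as a ferritin heavy or light chain. This gave 7 of the 25197 rows of the deposited table, 2 of heavy and 5 of light chain. The family was chosen by its mean level in these same libraries, where it leads the genes with a symbol. Its levels and ranks are therefore given as a description, and no test is made of them. With 3 libraries an exact sign-flip permutation test could in any case not give a two-sided p below 0.25. The name of a row was checked against its description, and for the rows with a symbol the description says only "Ferritin", without a chain. The heavy row without a symbol, ENSOARG00000014339, is described as ferritin heavy chain through a RefSeq peptide that the RefSeq table of the assembly ARS-UI_Ramb_v3.0 gives to FTH1. Both heavy rows thus carry the heavy chain's name by separate routes, and it cannot be said from the table which of them is the gene and which a copy. FTL_1 and FTL_2 cite the same protein entry. How reads that fit several copies were shared out is not given in the sources used here, so the division among copies is uncertain. Chromosomal positions and sequences were not used here.

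Values are on an RPKM-type scale, reads per length of gene and per depth of library, so that levels of different genes can be set side by side. The libraries were uneven, with summed values from 9531.8 in library 3 to 40060.3 in library 2. One read in a copy of the short U6 RNA was worth between 0.423 and 0.542, and by this measure the deepest library had 1.28 times the depth of library 2, the shallowest. In vesicle RNA of this kind, more vesicles with a transcript and more transcript per vesicle cannot be told apart.

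FTH1 (ENSOARG00000017679), named for the heavy chain, stood at 146.9, 674.3 and 132 in libraries 1, 2 and 3. Library 2 was far above the other pair, which lay close together. Among all rows it took place 6, 6 and 2, and it led the genes with a symbol in libraries 2 and 3 but was in place 3 among them in library 1. If the row is at least as long as a U6 copy, these values rest on no fewer than 348, 1244 and 294 reads. If each read also came from a separate molecule, counting error at 95% is at most 10.5%, 5.56% and 11.4% of the value. Whether reads were independent in this way was not tested, and the error is larger where they were not.

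The heavy row without a symbol, ENSOARG00000014339, followed the same order at a lower level, with 38.2, 134.4 and 35.2 in libraries 1, 2 and 3. Its mean was 69.3 ± 56.4 (SD, n = 3). FTH1 was higher than this row by 3.85, 5.02 and 3.75 times, a log2 ratio of 2.06 ± 0.23 (SD, n = 3). FTH1 held 79.4%, 83.4% and 78.9% of the heavy chain signal. The share of each heavy row was thus nearly the same in all 3 libraries.

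FTL_4 (ENSOARG00000005729), the leading row named for the light chain, stood at 167.5, 474.4 and 62.6. It was in places 5, 7 and 6 among all rows. FTL_2 (ENSOARG00000006834) reached 99.1, 232.3 and 39.1, in places 12, 11 and 15. Both light rows were lowest in library 3, and unlike the heavy rows they were well apart between libraries 1 and 3. FTL_4 exceeded FTL_2 by 1.69, 2.04 and 1.60 times, a log2 ratio of 0.82 ± 0.18 (SD, n = 3). FTL_4 and FTL_2 together held nearly all of the light chain signal, with 61.4% ± 2.35 and 34.8% ± 3.14 (SD, n = 3).

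**Figure D1:**
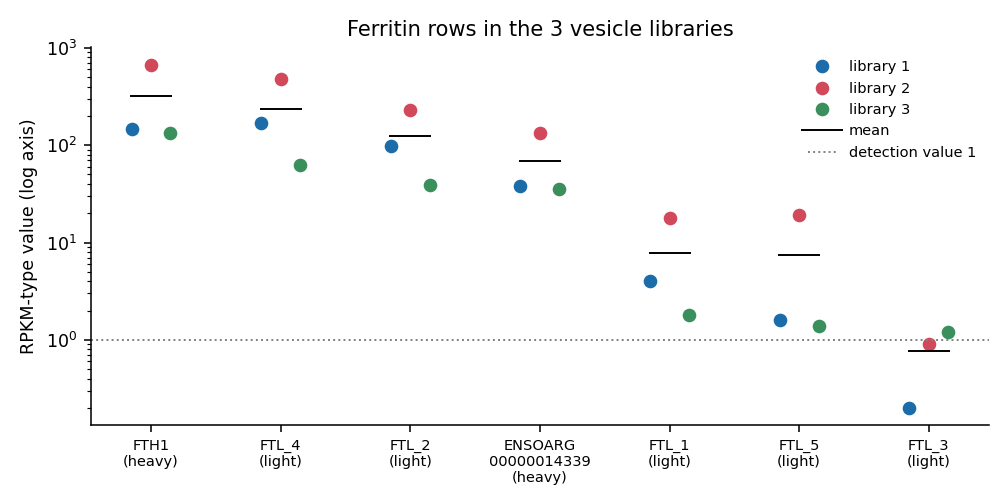
RPKM-type value (log axis) of the 7 ferritin rows in each of the 3 libraries; dots are libraries, black bars the means, and the dotted line is the detection value of 1. Library 2 is highest in 6 of the 7 rows, and the FTH1 dots of libraries 1 and 3 nearly coincide at 146.9 and 132 while those of FTL_4 lie apart at 167.5 and 62.6.

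The remaining light rows were minor. FTL_1 (ENSOARG00000012450) stood at 4, 17.8 and 1.8, and FTL_5 (ENSOARG00000013504) at 1.6, 19.4 and 1.4. FTL_3 (ENSOARG00000012895) stood at 0.2, 0.9 and 1.2, and it was the member that was not highest in library 2. Although FTL_1 and FTL_2 cite one protein entry, FTL_2 was higher by 24.8, 13.1 and 21.7 times. Reads behind these rows may be few, since a value of 1.4 in library 3 stands for 3.12 reads in a row as short as U6, with more in a longer row. Differences between libraries in FTL_1, FTL_3 and FTL_5 may therefore be poorly determined.

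Detection, a value of 1 or more in every library, was reached by 6 of the 7 members, against 3.89% of all 25197 rows. Since high level was the reason for the choice, nothing is read from that count. Just inside the detection rule lay FTL_5, whose lowest value was 1.4, and just outside it FTL_3 at 0.2. In order of the mean, FTH1 was in place 4 and FTL_4 in place 7. The rows around them were mostly uncharacterized. ENSOARG00000019903 and ENSOARG00000008767 stood next above FTH1, with means of 1342 and 408 over the 3 libraries. ENSOARG00000005816 and ENSOARG00000008759 came between FTH1 and FTL_4, at 314 and 278. PRO, described as a protease, and ENSOARG00000002624, described as ribosomal protein S27a, followed FTL_4 at 174 and 145. Within libraries, ENSOARG00000002624 was below FTL_4 in all 3, at 129.9, 273.8 and 32.7. The other neighbours changed sides with the ferritin row between libraries. In library 3, for example, both rows above FTH1 in the mean were below it, at 69.9 and 42.1.

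A further 19 rows were described as ferritin but fell outside the rule, 18 of them without a symbol or a stated chain. The other one was FTMT, the mitochondrial ferritin, listed at 0, 0.3 and 0. Of the 19, only ENSOARG00000015443 was detected in all libraries, at 3.5, 17.7 and 5.4. ENSOARG00000002980 stood at 0.3, 5.5 and 0.7. The others were near the floor, with 15 of the 19 below 1 in every library and 4 of these listed at 0 throughout. The table thus holds 26 ferritin rows, and FTH1, FTL_4, FTL_2 and ENSOARG00000014339 carried 97.1%, 95.9% and 95.3% of their summed value in libraries 1, 2 and 3.

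Added over rows, heavy chain values summed to 185.1, 808.7 and 167.2 in libraries 1, 2 and 3. Light chain values summed to 272.4, 744.8 and 106.1. The ratio of heavy to light was 0.68, 1.09 and 1.58, or -0.56, 0.12 and 0.66 on the log2 scale. Light chain predominated in library 1, the chains were nearly equal in library 2, and heavy chain predominated in library 3. The mean log2 ratio was 0.07 ± 0.61 (SD, n = 3), so its distance from 0 was smaller than the spread between libraries and neither chain led beyond that spread. Library depth cancels in this ratio.

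Which rows stand for a chain moved the level of the ratio. FTH1 against all light rows gave log2 ratios of -0.89, -0.14 and 0.32, a mean of -0.24 ± 0.61 (SD, n = 3). FTH1 against FTL_4 gave -0.19, 0.51 and 1.08, and against FTL_2 it gave 0.57, 1.54 and 1.76. Library 1 was lowest and library 3 highest in each of these versions, which rest on the leading rows. With a minor light row alone the order changed: the summed heavy rows were 46.3, 45.4 and 92.9 times FTL_1, 116, 41.7 and 119 times FTL_5, and 926, 899 and 139 times FTL_3. A heavier or lighter mix can thus be read from the same libraries depending on whether copies are summed, and summing assumes that each read was counted in a single row.

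**Figure D2:**
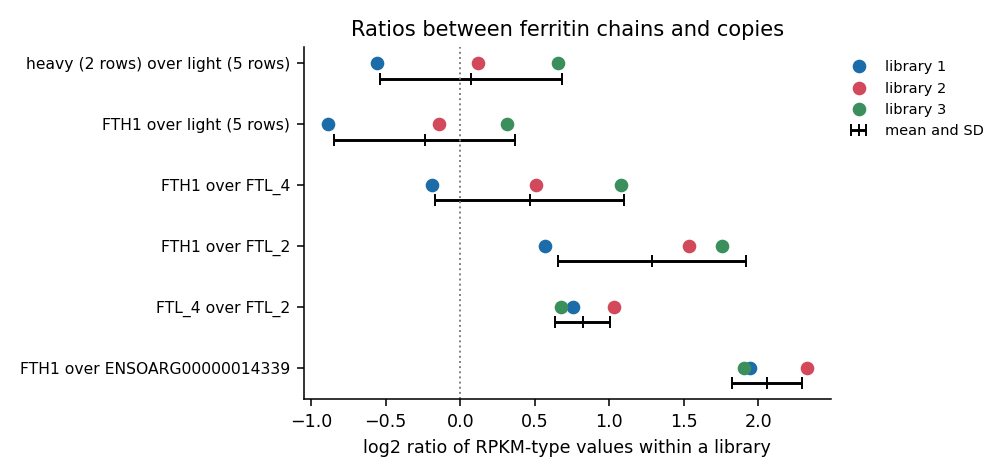
Log2 ratio of RPKM-type values within each library (horizontal axis) for 6 pairs of ferritin rows or sums of rows; dots are libraries, and the black bars give the mean and SD of the 3. Heavy-to-light ratios run from library 1 to library 3 over more than 1 log2 unit, while FTL_4 over FTL_2 and FTH1 over ENSOARG00000014339 stay within a narrow range, with SDs of 0.18 and 0.23.

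The leading rows of each chain differed in their fold between libraries 1 and 3. Library 1 exceeded library 3 by 1.11 times for FTH1 and by 1.09 times for ENSOARG00000014339. The same fold was 2.68 for FTL_4 and 2.53 for FTL_2. Over the 981 genes detected in all libraries its median was 1.25, with the middle 50% between 0.81 and 2.12. The heavy rows lay at the 44.3rd and 42.8th percentiles of these genes, and these light rows at the 82.2nd and 80.5th. The minor light rows varied, with folds of 2.22 for FTL_1, 1.14 for FTL_5 and 0.17 for FTL_3. Library 2 over library 1 gave the opposite order for the leading rows, with 4.59 for FTH1 (89.9th percentile) and 2.83 and 2.34 for FTL_4 and FTL_2 (65.2nd and 52.9th), but 4.45 for FTL_1 and 12.1 for FTL_5.

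Library 2 stood above the mean of the other pair by 4.84 times for FTH1, 4.12 for FTL_4, 3.36 for FTL_2 and 3.66 for ENSOARG00000014339. The median over the detected genes was 2.58, and FTH1 lay at their 88.8th percentile. Part of this fold goes with the library as a whole. With every library scaled to the same summed value the FTH1 fold was 1.51, and with the medians of the detected genes made equal it was 1.95. On the first of these scales the FTH1 mean became 291 ± 95.5 (SD, n = 3), with a much smaller spread than on the deposited scale.

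As a share of everything measured, ferritin was steadier. In libraries 1, 2 and 3 the 7 rows accounted for 2.62%, 3.88% and 2.87% of the total, a mean of 3.12% ± 0.67 (SD, n = 3). The heavy rows took 1.06%, 2.02% and 1.75%, and the light rows 1.56%, 1.86% and 1.11%. The heavy share was lowest in library 1 and the light share in library 3. Within the ferritin signal FTH1 made up 32.1%, 43.4% and 48.3%, and FTL_4 36.6%, 30.5% and 22.9%.

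**Figure D3:**
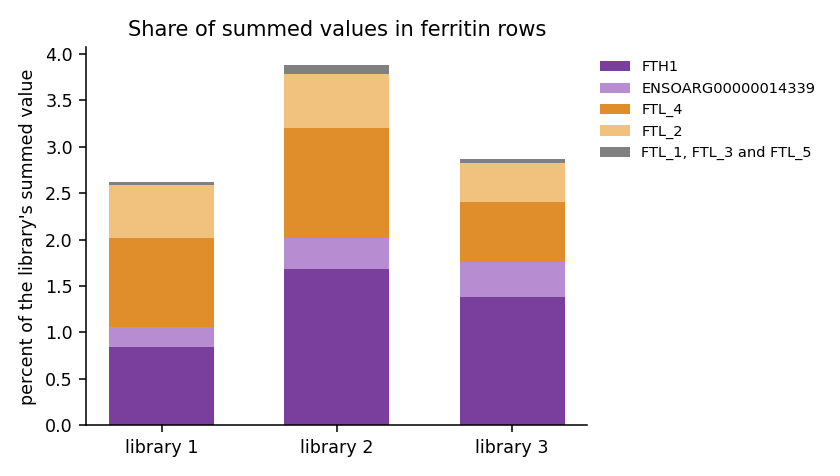
Percent of each library's summed RPKM-type value (vertical axis, from 0) held by ferritin rows, stacked by row, for libraries 1, 2 and 3. The total lies between 2.62% and 3.88%, and FTH1 and FTL_4 trade places, with FTL_4 the larger part in library 1 and FTH1 in libraries 2 and 3.

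Against GAPDH, a glycolytic enzyme used as a reference (71.7, 182.4 and 49.5), FTH1 was 2.05, 3.70 and 2.67 times as high. The summed light rows were 3.80, 4.08 and 2.14 times as high as GAPDH. Against RPLP0_1, a ribosomal stalk gene (58.2, 136.7 and 23.3), FTH1 was 2.52, 4.93 and 5.67 times as high and FTL_4 2.88, 3.47 and 2.69 times. FTL_4 kept close to the ribosomal gene in all libraries, with a log2 ratio of 1.58 ± 0.19 (SD, n = 3). FTH1 did so less, at 2.05 ± 0.62 (SD, n = 3). The actin rows ACTB_1 and ACTB_3, with means of 50.2 and 38.8, were lower than the 3 leading ferritin rows in every library.

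Likeness to FTH1 was measured over the 3 libraries as the Euclidean distance between log2 values, each gene centred on its own mean. With so few libraries many genes lie close by. The comparison covered 135 detected and named genes whose mean was 10 or more, and the median distance was 1.00. The nearest were ATP5O, a subunit of ATP synthase (14, 58.1 and 10.7), KRT8, a keratin of simple epithelia such as trophectoderm (26.3, 138.9 and 27.3), and DBI, an acyl-CoA binding protein (21.3, 83.6 and 16.7). MDH2, a mitochondrial malate dehydrogenase (6.2, 25.8 and 6), and the redox protein thioredoxin, TXN (31.1, 123 and 23.6), came next. Distances of these 5 ran from 0.17 to 0.19. ENSOARG00000014339 was at 0.33, but FTL_1, FTL_2, FTL_4 and FTL_5 were at 0.80, 0.89, 0.90 and 1.16, and FTL_3 at 2.25. FTL_2 and FTL_4 thus lay close to the median distance of the genes compared.

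Lists were drawn up for iron uptake, export, chaperones and turnover, sensing, haem, iron-sulphur clusters, and the antioxidant response with ferroptosis. Their members are called iron genes here, although those of the last list do not all handle iron. Of 131 symbols in these 7 lists, 108 matched a row, and 10 of these were detected (9.26%, against 4.01% of all 15867 symbols). The 10 were led by genes for redox control and iron-sulphur clusters, not by genes for iron transport, and each stood below FTL_2 in every library. No explanation of the higher share was tested, and the lists were not matched on expression or length.

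Of 14 matched symbols for iron uptake and 9 for iron export, 0 were detected, which for lists this short is near the 4.01% over all symbols. TFRC, the transferrin receptor that brings iron into most cells, and TF, its ligand transferrin, were listed at 0 in all 3 libraries. SLC40A1, the iron exporter ferroportin, stood at 0.4, 0.9 and 0.1, and HAMP, the hormone hepcidin that acts on it, was listed at 0 throughout. Also listed at 0 in each library was the row described as glutathione peroxidase 4, an enzyme that most cells use. This row, ENSOARG00000016879, was named after its values were seen. Whether an exact 0 stands for absence or for a failed estimate was not tested. Symbols for SLC11A2, NCOA4 and PCBP1 matched no row.

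ACO1, the iron regulatory protein that doubles as an aconitase, stood at 0.1, 0.2 and 0.5. IREB2, the other iron regulatory protein, stood at 0.3, 0.2 and 0.1. Of 10 matched symbols for sensing and for other transcripts with an iron-responsive element 0 were detected, again near the 4.01% over all symbols for a list of this size. EPAS1, an oxygen-responsive factor with such an element, led them at 1.5, 1.4 and 0.3.

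Among iron chaperones and turnover genes 2 of 13 were detected, beside 4.01% of all symbols. PCBP2, of the family that delivers iron to ferritin, stood at 2.6, 4.6 and 2, and GABARAP, an adaptor of autophagy, at 6.1, 12.5 and 2.4. Of 18 genes for haem 2 were detected, beside the same share. They were BLVRB, which reduces biliverdin and flavins (2.9, 15 and 2.5), and ALAS1, which begins haem synthesis (2, 1.4 and 1.4). HMOX1, which releases iron from haem, missed the rule at 0.4, 1.1 and 1. BLVRB shared the high value of library 2 with ferritin, whereas ALAS1 did not.

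Iron-sulphur cluster genes were detected in 4 of 26 cases, beside 4.01% of all symbols. BOLA3 (10.6, 23.2 and 4.3) and FAM96B (6.3, 22.2 and 1.7), which help to pass clusters to target proteins, were highest, followed by GLRX5 (1.6, 3.7 and 1.2) and the mitochondrial chaperone HSPA9 (1.1, 2 and 2). Of 22 genes of the antioxidant response and ferroptosis, a list that holds partners of ferritin in stress responses, TXN and the peroxidase PRDX1 (6.1, 58 and 7.5) were detected, beside the same 4.01%. NFE2L2, the factor that can raise ferritin transcription, stood at 0.5, 2 and 0.1.

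**Figure D4:**
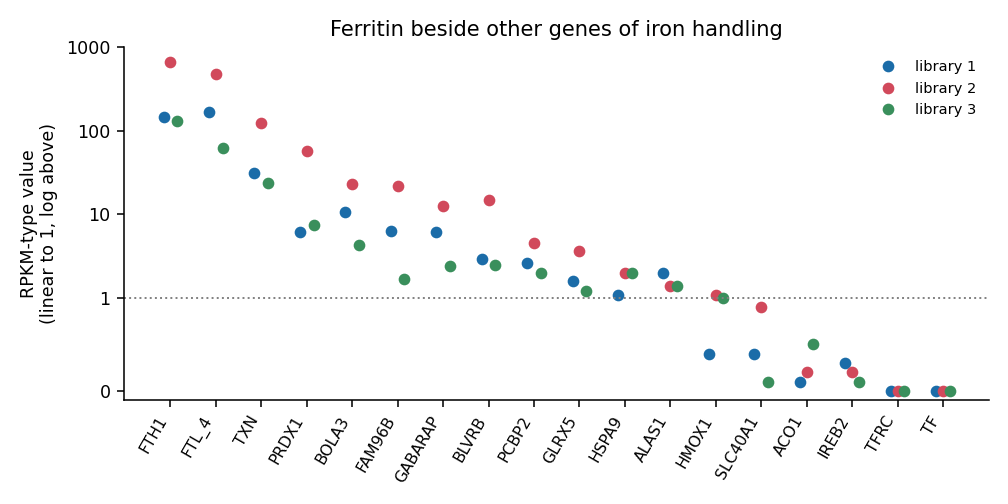
RPKM-type value (vertical axis, linear up to 1 and log above, dotted line at 1) of FTH1, FTL_4, the 10 detected iron-handling genes and 6 others, in libraries 1, 2 and 3. FTH1 and FTL_4 lie above all others in each library, and TFRC and TF are listed at 0 in all 3.

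Markers were also read for cell types that are rich in ferritin. Of 10 erythroid, 11 macrophage and 10 hepatocyte symbols 0 were detected, a count near the 4.01% over all symbols for lists this short. Their values summed to between 1.1 and 1.7, 3.1 and 6.5, and 2.2 and 3.9. GATA1 of erythroid cells and FCER1G of macrophages were listed at 0 in all libraries, and ALB of hepatocytes stood at 0.5, 0.4 and 0.4. AIF1 of macrophages was the highest of these genes, at 0.3, 2.8 and 4.1. For the labelled conceptus, 12 of 17 trophectoderm symbols matched a row. KRT8 and the interferon tau gene TP-1 (6.7, 26.2 and 4.7) were detected among the 12, beside 4.01% of all symbols. PAG1, also among the 12, is described as a phosphoprotein membrane anchor, so its symbol matched another gene than the list meant. It is still counted in the 12 and in the sum. Its values were 0.3, 0.2 and 0. The trophectoderm sum was 36.9, 171.3 and 36.6, and most of it was KRT8. GATA3, a transcription factor of that lineage, stood at 0.9, 0.9 and 3, in another order. APOA1, an apolipoprotein (6, 10.3 and 6.3), was detected among 12 symbols of extraembryonic endoderm, which summed to 9.2, 17.7 and 11.7. Uterine epithelial genes were detected in 4 of 12 cases, beside the same share, and summed to 63.5, 187.2 and 11, with the galectin LGALS15 at 18.8, 74.2 and 4.5, CST6 at 24.9, 49.1 and 1.1, and FXYD4 at 10.4, 30.2 and 1.8. That sum was lower in library 3 than in library 1. So were the light sum, the heavy sum (185.1 and 167.2 in libraries 1 and 3) and the summed value of all rows (17480.7 and 9531.8). The part of these cell types in the ferritin values was not tested.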

How the data were processed

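The authors deposited 1 table of 25197 rows with a value for each library and a mean. Per the submitters' processing notes, the genome was Oar_v3.1. The aligner, the counter and the treatment of multiply mapped reads were not given in the sources used here. No unit is named in the file. The deposited values were taken as RPKM (FPKM would look alike), rounded to 1 decimal, because the step of 1 read is larger in short genes and columns sum to different totals. The authors' mean differed from that of the columns by at most 0.0667.

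Libraries were assigned by title. Members were found by symbol or description. The members and gene lists were chosen with earlier results of these data known. The value of 1 read came from low values of 1012 rows named U6 and was tested on 3 simulated libraries (largest error 2.23%). Ratios used no pseudocount. No test was made. Named genes were the ferritin rows, the 3 highest detected genes of each list, 8 iron genes fixed by name, the 5 nearest patterns, neighbours in rank and reference genes. HSPA9, EPAS1, NFE2L2, HAMP, TF, ALB, GATA1, GATA3, FCER1G and AIF1 were named after their values were seen. Alternatives were other scales, detection values, row choices, a pseudocount of 1 and leaving out each library. Python 3.11.15, pandas 2.3.3, numpy 2.4.6 and matplotlib 3.10.9 were used.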

Additional observations from a re-analysis of the deposited data

How the results depend on the processing

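Under every scale and pseudocount tried, the FTH1 level, light chain total and log2 ratio of FTL_4 to FTL_2 moved by less than 1 SD. For FTH1 and the light chain total this says little, since their SDs (309 and 331) were close to their means (318 and 374). Leaving out 1 of 3 libraries can never move a mean by 1 SD, so omissions cannot be judged in this way. Without library 2 the FTH1 mean was 139 and the light chain total 189. The heavy to light log2 ratio changed with the row taken as light chain, to 0.78 with FTL_4, 1.60 with FTL_2, 5.86 with FTL_1, 6.38 with FTL_5 and 8.93 with FTL_3. It stayed within 1 SD with FTH1 as the heavy chain (-0.24) and a pseudocount of 1 (0.07). With each library left out in turn it ran from -0.22 to 0.39. After seeing the data it was also computed with the 18 rows of unstated chain counted as light (0.00367) or as heavy (0.13). No unnamed row is described as a light chain, so adding such rows to the light chain gave no value. The ferritin share was 4.67% of rows with a symbol. The FTH1 fold of library 2 was 1.51 at equal sums and 1.95 at equal medians. Genes detected in all libraries numbered 1905, 477 and 173 at values of 0.5, 2 and 5, 9771 at any value above 0, 2273 in at least 2 libraries, and 1122 to 1838 with a library left out. Iron genes detected numbered 20, 6 and 2 at values of 0.5, 2 and 5. These were 18.5%, 5.56% and 1.85% of the 108 matched, beside 7.92%, 1.87% and 0.643% of all symbols. They numbered 30 in at least 2 libraries, and 10 to 24 with a library left out, the highest without library 3. The share over all symbols was not computed for these last settings. Precision is limited by 3 libraries, and may be limited further by few reads in FTL_1, FTL_3 and FTL_5.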

Other observations

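Library 3, in which FTH1 was in place 2 of all rows, had many genes of the 7 lists below 1, as it had for genes at large. Of the 108 matched iron genes, 14 were at 1 or more in libraries 1 and 2 but below 1 in library 3. Another 6 were below 1 only in library 1, and 0 only in library 2. Over all 15867 symbols these counts were 666, 237 and 64, so the libraries came in the same order. For libraries 3 and 1 the counts were a larger part of the iron genes than of all symbols. So was the count detected in all libraries (9.26% against 4.01%). Beside the 14 iron genes below 1 only in library 3, 10 were detected in all libraries. For all symbols, 636 were detected beside the 666. Nothing particular to iron genes is read from these counts. Of the 14, 9 stood at 0.1 or less in library 3, which was not counted over all symbols. LPCAT3, a phospholipid remodelling enzyme, stood at 5, 25.9 and 0.1, GLRX3, a cytosolic iron-sulphur carrier, at 2.4, 8.7 and 0, HSCB, a cochaperone of cluster transfer, at 3.3, 8 and 0, and CISD1, an iron-sulphur protein of the outer mitochondrial membrane, at 1.9, 6.7 and 0. These genes were chosen after their values were seen.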
